A study of Mus musculus with 2 samples.

Results

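The 10 genes described here belong to the NRF2 antioxidant pathway: the transcription factor gene Nfe2l2, its inhibitor Keap1, and the target genes Hmox1, Nqo1, Gclc, Gclm, Slc7a11, Gsr, Txnrd1 and Srxn1. They were taken by name, with no measured value in the rule, and each symbol matched exactly 1 of the 54532 genes in the deposited table. RNA sequencing was done on stromal (niche) cells of mouse bone marrow, sorted live after removal of cells with CD45 (a blood cell protein), lineage antigens or CD71 (the transferrin receptor), in 1 library from a transplanted group (BMT) and 1 from a group with acute graft-versus-host disease (aGVHD_V), in which donor T cells attack the recipient's tissues. All recipients were female CB6F1 hybrid mice that received 2 irradiations of 4.0 Gy, described as sub-lethal, and, 4 hours later, marrow cells of CD45.1+ B6.SJL donors. The aGVHD_V mice additionally received spleen cells of female C57BL/6 mice. The labels do not give the meaning of the V, the day of sampling, the age of the mice or the number of mice behind each library. With 1 library per group there is no spread between replicates, so no difference was tested and no p-value is given.

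The protein NRF2, encoded by Nfe2l2, is kept scarce in resting cells because KEAP1 holds it and passes it to a CUL3 ubiquitin ligase for degradation. Oxidants and electrophiles modify cysteines of KEAP1, NRF2 then accumulates, pairs with a small MAF protein and binds antioxidant response elements near genes of glutathione synthesis, thiol recycling, quinone reduction and heme breakdown. Because this control acts largely on the protein, the level of Nfe2l2 mRNA is not a measure of NRF2 activity. In marrow, the pathway is known for protecting blood stem cells, red cell precursors and macrophages that recycle heme from red cells.

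The element that NRF2 binds has the core TGACNNNGC, which was searched on both strands of RefSeq promoters (GRCm38.p6, 250 bases before to 50 bases after each annotated start). Promoters were found for 7 of the 10 members (Nfe2l2, Keap1, Nqo1, Gclm, Slc7a11, Srxn1 and Txnrd1), with 9 promoters in all because Txnrd1 has several starts. The core was present in 4 of these 9 promoters, and in 12.4% of the 32851 promoters of all genes. The stretches with a match are shown because this element is the sequence feature the pathway is known for. They are written 5′ to 3′ on the strand of the gene, with the match in capitals and up to 20 bases on each side.
Nfe2l2 (chr2:75704875-75704913, minus strand, match beginning 240 bases before the start): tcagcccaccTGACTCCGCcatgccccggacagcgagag
Gclm (chr3:122245403-122245451, plus strand, 134 bases before the start): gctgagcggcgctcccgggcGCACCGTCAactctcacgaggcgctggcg
Txnrd1 (chr10:82859094-82859142, plus strand, 92 bases before one of its starts): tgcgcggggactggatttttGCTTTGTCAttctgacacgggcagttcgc
Srxn1 (chr2:152105532-152105573, plus strand, beginning at base 29 of the transcribed side): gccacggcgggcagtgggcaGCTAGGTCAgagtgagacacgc
In Nfe2l2 the core lay on the strand of the gene, and in Gclm, Txnrd1 and Srxn1 on the opposite strand. A match of these letters is a description of the sequence and was not set against binding data.

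The libraries were of similar size in reads, with 10869191 reads over genes for BMT and 11299834 for aGVHD_V, recovered from the FPKM values (fragments per kilobase of gene length and per unit of a scaled library size). The most frequent read number per gene, the unit of the intervals below, was 14 for BMT and 44 for aGVHD_V. Counted in these units the aGVHD_V library was less deep, so its 0 values bound a level less tightly (floor of 132 reads, against 42 for BMT). Reads covered 15477 genes in BMT and 12310 in aGVHD_V. The sorted cells carried much RNA of blood cells, with Ptprc (CD45) at an FPKM of 9.28 against 7.85 and Tfrc (CD71) at 160 against 269. Markers of erythroid cells summed to an FPKM of 44581 for BMT and 165375 for aGVHD_V, with 6 of the 9 matched markers at least 2-fold higher and none at 0. The summed level of 11 markers of mesenchymal stromal cells, the cells named by the label, was 698 against 30.2, and Lepr, the leptin receptor that defines them, had no reads in the aGVHD_V library. Endothelial markers (8 genes) summed to 77.9 against 14.6, with Cdh5, Kdr, Cldn5 and Tek without reads in the aGVHD_V library. Of these 8 genes 6 were lower by 2-fold or more and 2 were within it, with Emcn at 1.43 against 1.58. The 93 reads of Tek in the BMT library were too few for a bound. Neutrophil markers (10 genes) summed to 15397 against 20814 and macrophage markers (12 genes) to 231 against 182. The part of these shifts in the values of the NRF2 pathway genes was not tested, and in such bulk samples fewer cells of a type and less RNA per cell cannot be told apart.

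All 10 members were detected in both libraries, and none differed by 2-fold or more on the authors' scaling. When both libraries were brought to the same FPKM sum, which moved the median gene by -0.55, Keap1 (-1.27), Hmox1 (-1.12) and Nqo1 (-1.04) passed 2-fold with the lower value for aGVHD_V. Under that sum 5679 of the 14788 genes that reached a rescaled FPKM of 1 were also at least 2-fold lower. Nqo1 had 129 reads in the aGVHD_V library, under the floor of 132 reads described below. A difference of 1 or more on the scale of log2(FPKM + 1), aGVHD_V minus BMT, was counted as at least 2-fold. Genes that reached an FPKM of 1 in 1 or both libraries are called measured. Of the 12942 measured genes, 28.1% differed by 2-fold or more, of which those lower in the aGVHD_V library made up 19.4% of measured genes and those higher 8.65%. Among 4854 genes whose higher FPKM lay between 10 and 100, the range of most members, these shares were 8.2% and 6.47%. Most genes at the members' level thus lay within 2-fold as well. The members' median difference was 0.19, beside -0.07 for all measured genes, and 7 of the 10 lay within the interquartile range of all measured genes (-0.71 to 0.39). For the 4854 genes between 10 and 100 the median was 0.06 and the interquartile range was narrower, -0.33 to 0.41. Of the members at this level, Gsr, Txnrd1 and Nfe2l2 lay within that narrower range. Keap1, Hmox1 and Nqo1 lay below it, and Gclc and Gclm above it. The summed FPKM of the members was 321 for BMT and 366 for aGVHD_V, and they took 0.136% and 0.139% of the reads.

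**Figure D1:**
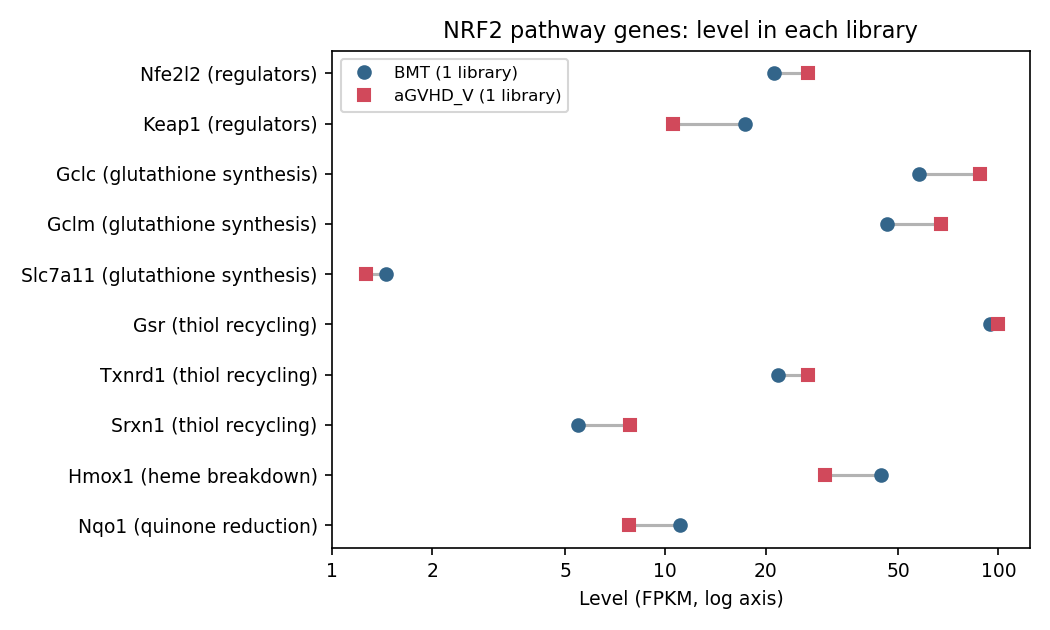
Level of each NRF2 pathway gene in FPKM (log axis) in the BMT library (circles) and the aGVHD_V library (squares), 1 library each, grouped by role. Gsr was the most abundant member in both libraries and Slc7a11 the least abundant, and Keap1, Hmox1, Nqo1 and Slc7a11 have the aGVHD_V value on the left.

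The members' levels spanned 65.0-fold for BMT and 79.3-fold for aGVHD_V. Because FPKM is per length, levels of different genes are set side by side here. Any other difference in how well reads of each gene were captured remains in these comparisons and was not measured. In the BMT library the order from high to low was Gsr, Gclc, Gclm, Hmox1, Txnrd1, Nfe2l2, Keap1, Nqo1, Srxn1 and Slc7a11. The aGVHD_V library had the same order except that Srxn1 and Nqo1 changed places, at 7.85 and 7.79. Neighbours in the BMT order that did not differ beyond counting error were Gclm and Hmox1, Txnrd1 and Nfe2l2, Nfe2l2 and Keap1, Keap1 and Nqo1, and Nqo1 and Srxn1. In the aGVHD_V library only the steps from Gclm to Hmox1 (2.22-fold, interval 1.24 to 4.32) and from Nfe2l2 to Keap1 (2.55-fold, 1.23 to 5.58) exceeded it. Intervals are 95% exact binomial intervals, widened by counting reads in units of the most frequent read number per gene (14 reads in the BMT library, 44 in the aGVHD_V library). They cover counting error only and hold no variation between mice.

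The regulators were of similar abundance in BMT and further apart in aGVHD_V. Nfe2l2 (ENSMUSG00000015839, chromosome 2, 75675513 to 75704641, minus strand of GRCm38) was at FPKM 21.2 (BMT) and 26.8 (aGVHD_V), from 975 and 1084 reads. The aGVHD_V value was the higher one, at a ratio of 1.26 (interval 0.765 to 2.03), and the interval included no difference. Keap1 (ENSMUSG00000003308, chromosome 9, 21229730 to 21239361, minus strand) had 17.4 against 10.5, from 991 and 526 reads. This was the member with the lowest difference (-0.68), and its level was 1.66-fold lower, but its interval (0.891 to 3.36) also reached past no difference. That interval depended on the scaling: it excluded no difference with library sizes of all recovered reads (1.96-fold lower, 1.05 to 3.97), with the equal FPKM sum (2.47-fold lower, 1.33 to 5.02) and when hemoglobin, mitochondrial and ribosomal protein genes were left out of the scaling. Of all measured genes, 73.9% had a higher difference than Keap1. Within a library, the ratio of Nfe2l2 to Keap1 does not depend on how the library was scaled. It was 1.22 (0.861 to 1.72) for BMT and 2.55 (1.23 to 5.58) for aGVHD_V, a change of 2.09-fold whose interval (0.932 to 4.98) included no change.

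The subunits of glutamate-cysteine ligase, which makes the first and rate-limiting step of glutathione synthesis, had the largest positive differences of all members. Gclc, the catalytic subunit (ENSMUSG00000032350, chromosome 9, 77754535 to 77794485, plus strand), was at FPKM 57.9 (BMT) and 88.0 (aGVHD_V), from 2645 and 3532 reads. Its level was 1.52-fold higher in the aGVHD_V library, with an interval of 1.15 to 1.98. Gclm, the modifier subunit that raises the affinity of the enzyme for glutamate (ENSMUSG00000028124, chromosome 3, 122245557 to 122270732, plus strand), had 46.3 against 67.1, from 3531 and 4498 reads. It was 1.45-fold higher, with an interval of 1.14 to 1.83. On the authors' scaling Gclc and Gclm were the only members with a fold whose widened interval excluded no difference, and under 2 of the other 4 scalings their intervals included it. With library sizes of all recovered reads the intervals of Gclc (0.977 to 1.68) and Gclm (0.964 to 1.55) included no difference, and Keap1 was the only member whose interval excluded it. With the equal FPKM sum the differences of Gclc and Gclm were 0.02 and -0.04, and the intervals of 3 members (Keap1, Hmox1 and Gsr) excluded no difference, all with the lower value for aGVHD_V. Of all measured genes, 17.2% had a higher difference than Gclc and 19.5% a higher one than Gclm. The pair kept its proportion: Gclc over Gclm was 1.25 (1.03 to 1.52) for BMT and 1.31 (0.967 to 1.77) for aGVHD_V, a change of 1.05-fold (0.726 to 1.50).

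Exons of Gclm overlap Gm17494 on the opposite strand, which had no reads for BMT and 130 for aGVHD_V, and the pseudogene Gm6061, which had none in either. Exons of Keap1 overlap the antisense gene Gm16754, which had no reads in either library. The labels do not say whether reads were counted by strand, so the reads of Gclm and Keap1 may include some of these partners. The other members overlap no exon of another gene in GENCODE release M21, and all 10 members have the same start and end there as in the deposited table.

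The cystine importer was scarce. Slc7a11, the light chain of the antiporter that brings in cystine for glutathione synthesis (ENSMUSG00000027737, chromosome 3, 49892526 to 50443614, minus strand), was at FPKM 1.45 (BMT) and 1.26 (aGVHD_V), from 245 and 187 reads. Its ratio of 0.868 had an interval of 0.224 to 2.59, so a difference of 2-fold in either direction was not detectable at this depth. Gclc was 39.9 times as abundant as Slc7a11 in the BMT library (24.4 to 69.4) and 69.8 times in the aGVHD_V library (26.9 to 250). Slc3a2, the heavy chain that carries Slc7a11 and other amino acid transporters to the cell surface, was at 65.2 against 80.9.

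Genes of thiol recycling had ratios of 1.06 to 1.44 between the libraries. Gsr, glutathione reductase, which regenerates glutathione with NADPH (ENSMUSG00000031584, chromosome 8, 33652523 to 33698163, plus strand), was at FPKM 94.3 (BMT) and 99.9 (aGVHD_V), from 3148 and 2932 reads. Its ratio of 1.06 had an interval of 0.794 to 1.40, and with the equal FPKM sum the ratio was 0.709 (0.531 to 0.936). It was the most abundant member in both libraries, at rank 455 and 544 of all genes in the table. Txnrd1, the cytosolic selenoprotein thioredoxin reductase (ENSMUSG00000020250, chromosome 10, 82833951 to 82897712, plus strand), had 21.8 against 26.9, from 1870 and 2032 reads (ratio 1.24, interval 0.865 to 1.74). Srxn1, sulfiredoxin, which repairs overoxidized peroxiredoxins (ENSMUSG00000032802, chromosome 2, 152105516 to 152111376, plus strand), had 5.47 against 7.85, from 187 and 236 reads. The ratio of Srxn1 (1.44) was close to that of Gclm, but its interval of 0.421 to 4.17 was far wider and included no difference. Gsr was 4.33 times as abundant as Txnrd1 in the BMT library (3.48 to 5.41) and 3.71 times in the aGVHD_V library (2.51 to 5.53).

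The members Hmox1 (heme breakdown) and Nqo1 (quinone reduction) had their lower value in the aGVHD_V library. Hmox1, the inducible heme oxygenase that opens the heme ring and releases iron and carbon monoxide (ENSMUSG00000005413, chromosome 8, 75093621 to 75100589, plus strand), was at FPKM 44.4 (BMT) and 30.3 (aGVHD_V), from 942 and 565 reads. It was 1.47-fold lower, and its interval (0.800 to 2.91) reached past no difference, whereas with the equal FPKM sum it was 2.19-fold lower (1.19 to 4.34). Nqo1, a quinone reductase widely used as a readout of NRF2 activity (ENSMUSG00000003849, chromosome 8, 107388225 to 107403206, minus strand), had 11.1 against 7.79. Its 129 reads in the aGVHD_V library lie under the floor of 132 reads (3 counts of 44 reads), so its values are given without a fold. Transcripts of hemoglobin, the protein that binds most heme in red cell precursors, went the other way: Hba-a1, an alpha globin gene with a near-identical copy, had 17046 against 67186, and their part in the value of Hmox1 was not tested.

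**Figure D2:**
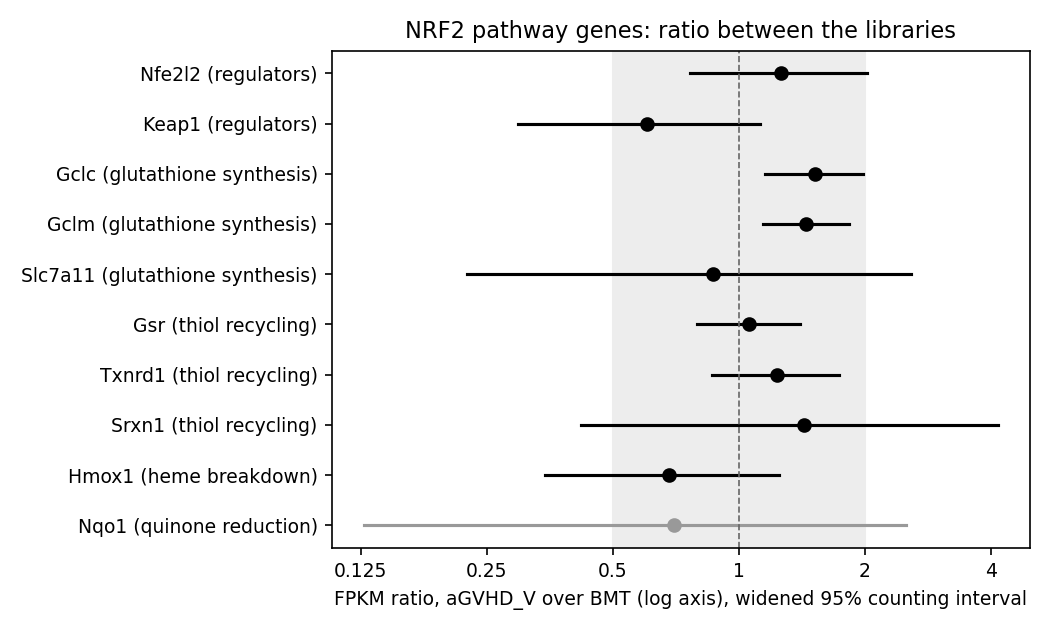
Ratio of the FPKM in the aGVHD_V library to that in the BMT library for each NRF2 pathway gene (log axis), with the widened 95% counting interval, from 1 library per group. The grey band marks less than 2-fold, the dashed line no difference, and Nqo1 is grey because its reads in the aGVHD_V library were under the floor. On the authors' scaling plotted here, the intervals of Gclc and Gclm lie above 1 and those of the other members include it.

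Ratios between target genes within a library do not depend on its scaling either. The ratio of Hmox1 to Gclc was 0.766 (0.571 to 1.02) for BMT and 0.344 (0.175 to 0.624) for aGVHD_V. This ratio was 2.23-fold lower in the aGVHD_V library, with an interval of 1.11 to 4.55. The ratio of Hmox1 to Nfe2l2 was 2.09 against 1.13, which is 1.85-fold lower, and the interval (0.824 to 4.25) reached past no change. Of the 6 ratios between members that were computed, all chosen after their values were seen, only that of Hmox1 to Gclc had an interval of its change that excluded 1. The intervals were not adjusted for the number of ratios.

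The values of related genes below are on the authors' scaling, and with the equal FPKM sum the median of each of the 6 lists was below 0. The counts of each list stand beside 19.4% of all measured genes lower and 8.65% higher by 2-fold or more. Partners of NRF2 and genes of its degradation were mostly within 2-fold. Of 13 genes on this list 12 were measured. Their median difference was 0.04, with 2 genes lower by 2-fold or more and none higher, and the median was -0.51 with the equal FPKM sum. Mafg, a small MAF protein with which NRF2 binds DNA, had an FPKM of 12.3 against 22.3 and was 1.81-fold higher (1.13 to 2.85), but the interval included no difference with library sizes of all recovered reads (0.956 to 2.41) and with the equal FPKM sum (0.757 to 1.91). Maff, another small MAF, had 18.2 against 6.15 and was 2.97-fold lower (1.06 to 11.8). Bach2, a repressor that competes for the same elements and is typical of B cells, had 278 reads (BMT) against 0. This was at least 1.85-fold lower when 0 is set to the floor of 132 reads, before counting error. The widened interval of Bach2 began at 1.37-fold lower. Markers of B-lineage cells (6 genes) summed to 69.8 against 1.50, and their part in the value of Bach2 was not tested. Bach1, the related repressor of Hmox1, was at 11.6 against 11.9, with a ratio of 1.02 (0.568 to 1.75). Nfe2, the relative of NRF2 that acts in red cell and platelet precursors, had 62.0 against 106 and was 1.71-fold higher (1.29 to 2.26), or 1.15-fold (0.862 to 1.51) with the equal FPKM sum. It lay beside higher sums of erythroid markers (above) and of 7 platelet markers (82.9 against 281), whose part was not tested. Of the platelet markers 5 were higher by 2-fold or more and 1, Gp1ba (1.67 against 0), was lower. Most of the rise of their sum was that of Pf4 (28.4 against 191), while Ppbp had 29.2 against 28.3. Sqstm1, the autophagy receptor p62 that can bind KEAP1, was the most abundant gene of the list at 97.9 against 105, and Cul3, the scaffold of the ligase, was at 22.8 against 27.0.

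Glutathione transferases went both ways. Of 20 genes of glutathione synthesis, transport and conjugation 16 were measured, of which 4 were lower by 2-fold or more and 1 was higher (median -0.04, or -0.60 with the equal FPKM sum). All measured genes also went both ways, with 19.4% lower and 8.65% higher. Gstt1, a theta class transferase, had 221 reads (BMT) against 0, at least 1.47-fold lower against the same floor before counting error. The widened interval of Gstt1 began at 1.06-fold lower. Gsta4, which conjugates products of lipid peroxidation, had an FPKM of 6.77 against 0 and Gstm2 had 2.80 against 0, both with too few reads for a bound. Gstm1 had 30.0 against 13.1, with an interval of the fold (0.880 to 7.87) that included no difference. Mgst3, a microsomal transferase, had 74.5 against 162 and was 2.17-fold higher (1.45 to 3.22), but under 3 of the alternative scalings it no longer reached 2-fold. Many transferases have near-identical copies, so the division of reads among them is uncertain: Gstp2 had no reads in either library, beside 77.2 against 110 for Gstp1.

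Enzymes that supply NADPH, the reductant that Gsr and Txnrd1 use, had differences on both sides of 0. All 7 genes of NADPH supply and the pentose phosphate pathway were measured, and 1 of them was lower by 2-fold or more (median 0.00). With the equal FPKM sum 2 were lower and the median was -0.58. That gene was Me1, malic enzyme, with 77 reads in the BMT library (FPKM 1.65) and none in the other, too few for a bound. Taldo1, the transaldolase, was the most abundant at 215 against 315 and was 1.47-fold higher (1.22 to 1.76), but its ratio was 0.981 (0.814 to 1.18) with the equal FPKM sum. Idh2, the mitochondrial isocitrate dehydrogenase, had 27.6 against 48.0 (1.74-fold higher, 1.09 to 2.73, or 1.16-fold, 0.727 to 1.83, with the equal FPKM sum), whereas its cytosolic relative Idh1 had 11.4 against 7.14, with an interval of the fold of 0.599 to 5.47. G6pdx, the entry enzyme of the pathway, was at 53.0 against 52.8 with a ratio of 0.997 (0.682 to 1.43).

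Of 12 genes of the thioredoxin and glutaredoxin system, all measured, only 1 reached 2-fold, in the higher direction (median 0.10). With the equal FPKM sum 2 were lower, none was higher and the median was -0.44, and with library sizes of all recovered reads 1 was lower, none was higher and the median was -0.11. Txnrd2, the mitochondrial relative of Txnrd1, had an FPKM of 17.4 against 39.0 and was 2.24-fold higher (1.48 to 3.35), but it no longer reached 2-fold under the same 3 scalings or with a pseudocount of 5. Glrx5, a mitochondrial glutaredoxin of iron-sulfur cluster assembly, had 116 against 223 and was 1.92-fold higher (1.61 to 2.28). It was the only gene of the 6 lists whose interval still lay above 1 with the equal FPKM sum (1.08 to 1.53). The value of Glrx5 lay beside the higher erythroid markers (44581 against 165375), whose part was not tested. Prdx3, the mitochondrial peroxiredoxin, had 95.3 against 161 and was 1.69-fold higher (1.21 to 2.33), or 1.13-fold (0.813 to 1.56) with the equal FPKM sum. Prdx4, the peroxiredoxin of the endoplasmic reticulum, had 25.4 against 14.1, with an interval of the fold (0.815 to 4.65) that included no difference. Txn1, the cytosolic thioredoxin that Txnrd1 reduces, was the most abundant at 226 against 256 (ratio 1.13, 0.843 to 1.50).

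Of the genes that act after or beside Hmox1 in heme breakdown and iron storage, most had the higher value in the aGVHD_V library. All 7 genes of this list were measured and lay within 2-fold, 5 of them with a difference above 0, and the median was 0.51. Blvrb, a biliverdin reductase abundant in red cells, had 155 against 238 and was 1.53-fold higher (1.27 to 1.85). Blvra, the main biliverdin reductase of adult tissues, had 16.1 against 24.1, with a ratio of 1.49 (0.746 to 2.84). The ferritin subunits were the most abundant genes of the list, with 1914 against 2415 for Fth1 (1.26-fold higher, 1.14 to 1.40) and 588 against 857 for Ftl1 (1.46-fold higher, 1.26 to 1.68). Slc40a1, the iron exporter ferroportin of macrophages, had 13.9 against 8.19 and was 1.70-fold lower (1.02 to 2.97). Its value, like that of Hmox1, lay beside the macrophage markers, and the part of these cells was not tested. Of these markers 2 of 11 measured genes were lower by 2-fold or more, close to the 19.4% of all measured genes. Among them Mrc1, a mannose receptor of tissue macrophages, had 8.22 against 2.83 and Vcam1 38.4 against 11.9, while C1qa, a complement subunit of macrophages, had 58.1 against 75.2. When both libraries were brought to the same FPKM sum the median of the list was -0.06, Slc40a1 was at least 2-fold lower (2.53-fold, 1.53 to 4.44) and the ratio of Fth1 was 0.845 (0.762 to 0.936).

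Of 14 other reported NRF2 targets 11 were measured, and 3 of them were lower by 2-fold or more (median -0.14, or 4 lower and a median of -0.71 with the equal FPKM sum). Ephx1, an epoxide hydrolase, had an FPKM of 14.3 against 3.85. Osgin1, an oxidative stress induced growth inhibitor, had 3.89 against 0.631, and Cbr3, a carbonyl reductase, 2.43 against 0. These 3 genes had reads under the floor in at least 1 library and are given without a fold. Markers of mesenchymal stromal cells were lower as well (698 against 30.2). Their part in these values, and in the other lower values of the 6 lists, was not tested. Cat, the catalase, had 65.2 against 111 and was 1.70-fold higher (1.26 to 2.27), or 1.14-fold (0.843 to 1.52) with the equal FPKM sum, beside the higher erythroid markers, whose part was not tested. Of the 6 related lists, none had more than 1 gene that was higher by 2-fold or more. Among all measured genes 8.65% were higher and 19.4% lower by 2-fold or more.

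**Figure D3:**
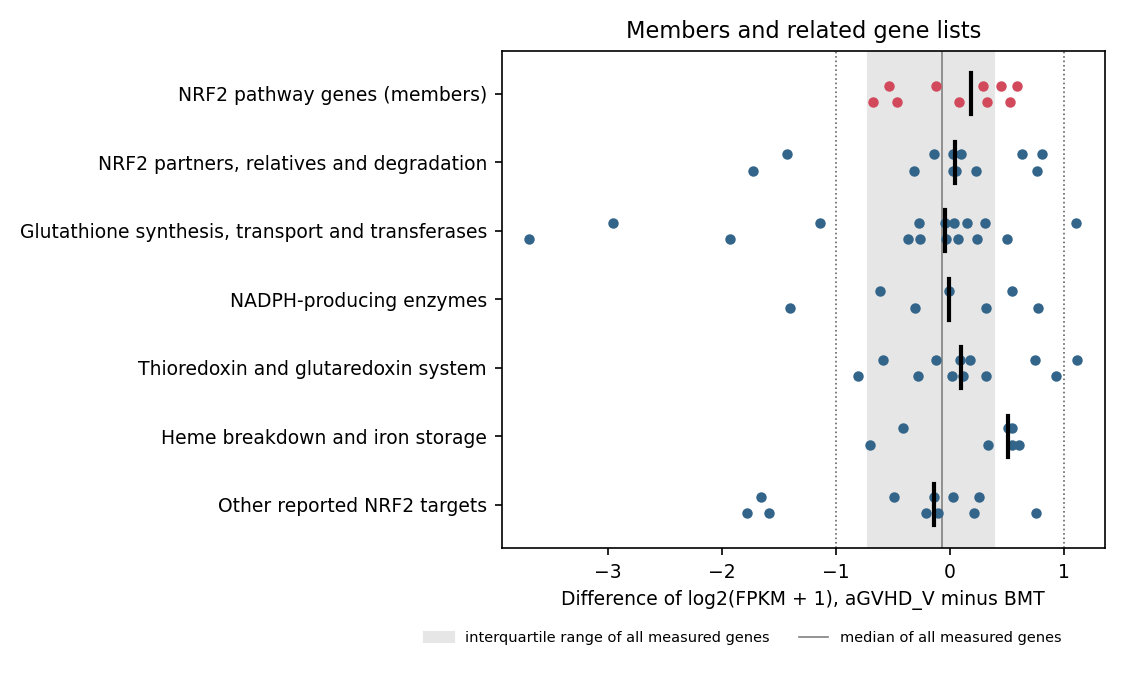
Difference of log2(FPKM + 1), aGVHD_V minus BMT, for the 10 NRF2 pathway genes (top row) and for the measured genes of 6 related lists, each point 1 gene and each black bar the median of its row. Dotted lines mark 2-fold and the grey band the interquartile range of all 12942 measured genes. On the authors' scaling plotted here, the members lie between -0.68 and 0.59, inside the dotted lines.

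The scale of the libraries set where 0 lay for the members. Under each of 9 alternative settings, 6 members lay above the median gene, taken among genes that reached an FPKM of 1 in both. That count could hardly change, because a scaling moves the members and the median gene nearly alike. The filters and the floor left the values of the members they kept as they were. The count is therefore no test of how stable the members' position was. Keap1, Hmox1, Nqo1 and Slc7a11 kept a negative difference under every alternative that gave a value, and Gclc a positive one. Gsr changed sign under 3 alternatives, and Nfe2l2, Gclm, Srxn1 and Txnrd1 under 1, the equal FPKM sum.

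**Figure D4:**
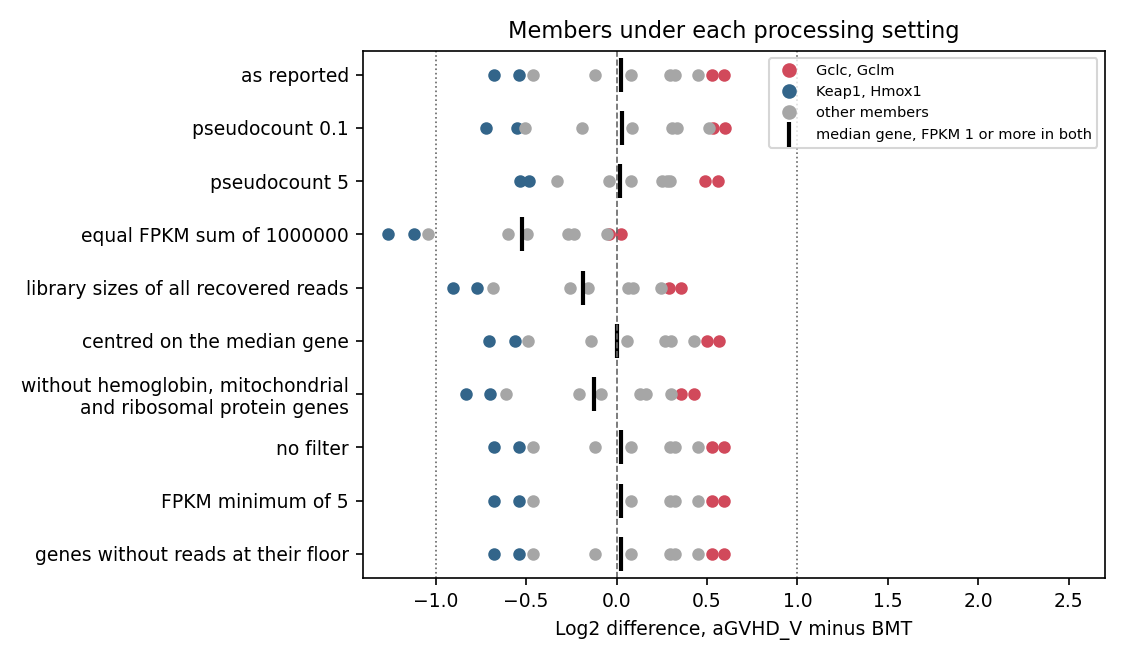
Log2 difference, aGVHD_V minus BMT, of each NRF2 pathway gene (points) under the reported setting and 9 alternatives, with the median of genes that reached an FPKM of 1 in both (black ticks). Gclc and Gclm lie at the upper end and Keap1 and Hmox1 at the lower end in every row. With the equal FPKM sum the median gene lies at -0.52 and 3 members pass the dotted line at 2-fold lower.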

How the data were processed

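RNA of sorted marrow stromal cells was sequenced in 2 libraries, BMT and aGVHD_V. The values are FPKM as deposited by the authors, 1 per gene and library, although the series title speaks of single cells. The submitters' processing notes name edgeR 3.18.1, GRCm38 and mm10. The labels name no aligner or read counter. Values in 1 other column fit no label and were left out.

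FPKM times gene length came out as whole multiples of 1 step per library for 100% of values above 0 (tolerance 0.05), which gave the reads. They sum to 10869191 and 11299834, and the authors' library sizes were 1.12 and 0.944 times these sums. Ratio intervals were computed from reads divided by the modal read number (the window of 7 read numbers holding most genes, from 4 reads up). The interval for a change of a ratio was the exact conditional one on these units, rounded. A fold against 0 reads used a floor of 3 units. A gene under the floor in either library is given without a fold. Differences used a pseudocount of 1, and measured genes were those that reached an FPKM of 1 in either library. The calculations were tested on simulated data that held counting error only, as the intervals assume. That test cannot show how well the widened intervals suit these libraries. Where rows share a symbol, the row with most reads was used. Named were all members and, per list, up to 4 measured genes with the largest absolute difference and the most abundant. Further named genes (Bach1, Cul3, Slc3a2, Gstp1, Gstp2, G6pdx, and markers) were chosen after their values were seen. Members and lists were chosen with earlier results of these data known. The software was Python 3.11.15, numpy 2.4.6, pandas 2.3.3, scipy 1.17.1 and matplotlib 3.10.9.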

Additional observations from a re-analysis of the deposited data

How the results depend on the processing

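The count of members at least 2-fold lower, 0 as reported, was 3 (Keap1, Hmox1 and Nqo1) when both libraries were brought to the same FPKM sum, under which the median gene moved by -0.55. Under that sum 5679 of 14788 measured genes were also at least 2-fold lower. The members' count was 0 under the other 8 alternatives, and no alternative gave a member that was at least 2-fold higher. The members' median difference of 0.19 ran from -0.38 (equal FPKM sum) to 0.29 (FPKM minimum of 5, which left out Slc7a11). It was -0.05 when library sizes were the recovered totals and 0.02 when hemoglobin, mitochondrial and ribosomal protein genes were left out of the scaling. Of all measured genes outside 2-fold, 69.2% were lower as reported, against 86.3% with the equal FPKM sum (5679 lower, 900 higher), 58.6% with a pseudocount of 5 (503 lower, 356 higher) and 56.7% with genes without reads at their floor (987 lower, 754 higher). Mgst3 and Txnrd2 were no longer at least 2-fold higher under 3 scalings (equal FPKM sum, all recovered reads, without hemoglobin, mitochondrial and ribosomal protein genes). With a pseudocount of 5 the genes at least 2-fold lower fell to 1 among NRF2 partners, 2 among glutathione genes, 0 among NADPH enzymes and 1 among other targets. With genes without reads at their floor they were 1, 1 and 0 in the first 3 of these lists. Recomputed after the data were seen, the widened interval lay above 1 for 2 members (Gclc and Gclm) as reported, for 0 with the equal FPKM sum or all recovered reads, and for 2 under the other 2 scalings. It lay below 1 for 0 members as reported, for 3 with the equal FPKM sum (Keap1, Hmox1 and Gsr), for 1 (Keap1) with all recovered reads or without hemoglobin, mitochondrial and ribosomal protein genes, and for 0 with median centring. With reads counted one by one, in place of units of the modal number, the interval of 9 of the 10 members excluded no difference, against 2 with the widened intervals. The lowest depth was that of Nqo1, Slc7a11 and Srxn1, with 129 to 245 reads. No paired analysis was possible because each group holds 1 library.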
